A study of Mus musculus with 4 samples.

Results

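The replication-dependent histone genes lie in clusters and encode the linker histone H1 and the core histones H2A, H2B, H3 and H4. Their transcripts were examined in polyA-enriched RNA of cultured mouse hippocampal neurons, by symbol: every gene whose short name starts with Hist1h, Hist2h, Hist3h or Hist4h. The gene tables held 68 such symbols in 73 rows, none of them marked as a failed estimate. A gene was kept as a member where its FPKM (fragments mapped to a gene, scaled by transcript length and by the mapped fragments of the library, and summed over the rows of a symbol) was at least 1 in at least 1 of the 4 libraries. This left 29 members, against 13458 genes of any kind over the same limit. The level chose the members, so the counts of members per class below are a description.

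The cells came from hippocampi of newborn (P0) CD1 pups, grown in Neurobasal medium with B27 supplements. Per the labels, 4 conditions were sequenced, each with 1 library. Neurons infected on day 4 in vitro with a lentivirus that expresses a short hairpin RNA (shRNA) against Kdm6b were collected on day 11, either after 3 h in bicuculline and 4-aminopyridine (Bic/4AP) or untreated. Neurons infected on the same day with the empty pLKO.1 lentivirus, called vector here, were collected on day 11 after the same 3 h of Bic/4AP or untreated. All 4 conditions thus share a lentiviral infection, and the hairpin is a single sequence. Bicuculline blocks GABA-A receptors and was used at 50 (the label spells the unit µm); 4-aminopyridine blocks potassium channels and was used at 2.5 mM. Together they raise firing in cultured networks. Kdm6b encodes a demethylase of lysine 27 of histone H3. It was at 4.83 FPKM (shRNA, Bic/4AP), 2.73 FPKM (shRNA, untreated), 13.1 FPKM (vector, Bic/4AP) and 6.74 FPKM (vector, untreated), so it was lower with the hairpin in both states.

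As background, canonical histone mRNA is made mainly in S phase, when new chromatin is built. Its genes lack introns, and its message normally has no polyA tail: the 3′ end is formed just after a conserved stem-loop, which the stem-loop binding protein SLBP holds and the U7 small nuclear ribonucleoprotein helps to cut. Some of these genes also yield transcripts that run on past the stem-loop to a polyadenylation site, a form known from differentiated, non-dividing cells. Selection on polyA therefore does not sample all histone mRNA, and the levels below are those of the RNA that passed this selection.

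The stem-loops of 8 highly expressed members show what the end of the canonical message looks like. They were read from GENCODE mouse release 21 transcripts, in the 3′ UTR, 5′ to 3′, with the 16-base stem-loop in capitals and flanking bases in lower case:
Hist1h1c (chr13:23739507-23739532, GRCm38, plus strand): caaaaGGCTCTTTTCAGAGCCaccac
Hist2h2aa1 (chr3:96246027-96246052, GRCm38, plus strand): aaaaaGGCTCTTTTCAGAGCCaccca
Hist3h2a (chr11:58955167-58955192, GRCm38, plus strand): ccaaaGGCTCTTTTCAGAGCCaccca
Hist3h2ba (chr11:58949344-58949369, GRCm38, plus strand): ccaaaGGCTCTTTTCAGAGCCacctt
Hist2h3c1 (chr3:96247322-96247347, GRCm38, plus strand): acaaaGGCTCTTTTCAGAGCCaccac
Hist1h4i (chr13:22040961-22040986, GRCm38, minus strand): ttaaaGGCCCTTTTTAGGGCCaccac
Hist1h4h (chr13:23531453-23531478, GRCm38, plus strand): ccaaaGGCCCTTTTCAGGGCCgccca
Hist1h4m (chr13:21812124-21812147, GRCm38, plus strand): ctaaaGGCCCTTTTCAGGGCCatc

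The form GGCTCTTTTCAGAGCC was found in 26 of the 68 genes, of classes H1, H2A, H2B and H3, and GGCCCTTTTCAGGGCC in 7 genes, all H4. The form of Hist1h4i, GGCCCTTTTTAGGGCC, was shared with 1 other gene, Hist2h4. The stem-loops of Hist1h1c and Hist3h2a lie 24 and 41 bases after the stop codon, but the annotated transcripts go on for 840 and 1643 bases beyond them. The transcripts of Hist2h2aa1, Hist1h4h and Hist1h4m instead end 35, 46 and 3 bases after the stem-loop.

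The annotated 3′ end divided the 68 genes into near-equal groups with different shares of members. In 23 genes the longest annotated transcript ran at least 100 bases past the stem-loop; 14 of these were members, and the median over the 23 of the highest FPKM in any library was 1.45. In another 23 genes it ended closer than that; 4 of these were members (Hist1h4h, Hist1h4m, Hist1h4n and Hist2h2aa1), and the median was 0.226. In the last 22 genes no stem-loop was found in the annotated transcript; 11 of these were members, and the median was 0.988. An absent match says only that these letters are not in that transcript. The polyadenylation signal AATAAA, searched on the transcript strand in the last 50 bases, was present in 15 of the 68 genes, of which 11 were members, and absent from 53, of which 18 were members. The same search found it in 40.7% of all 58616 protein-coding transcripts of the release. Hist1h1c, Hist3h2a, Hist3h2ba and Hist2h3c1 carry it; Hist1h2bc, whose annotated transcript has 2 exons and no stem-loop, does not. These annotations are descriptions of gene models, and the end of the RNA in these cultures was not measured. The FPKM came from the deposited mm9 loci, which are other models. For some genes that run on past the stem-loop the locus is shorter than the annotated transcript. It spans 312 bases against 774 for Hist1h4j, and 312 against 1138 for Hist1h4d. Others are close, as Hist1h1c with 1561 and 1560. The shares and medians above thus set levels beside ends that were not always the ones quantified.

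**Figure D1:**
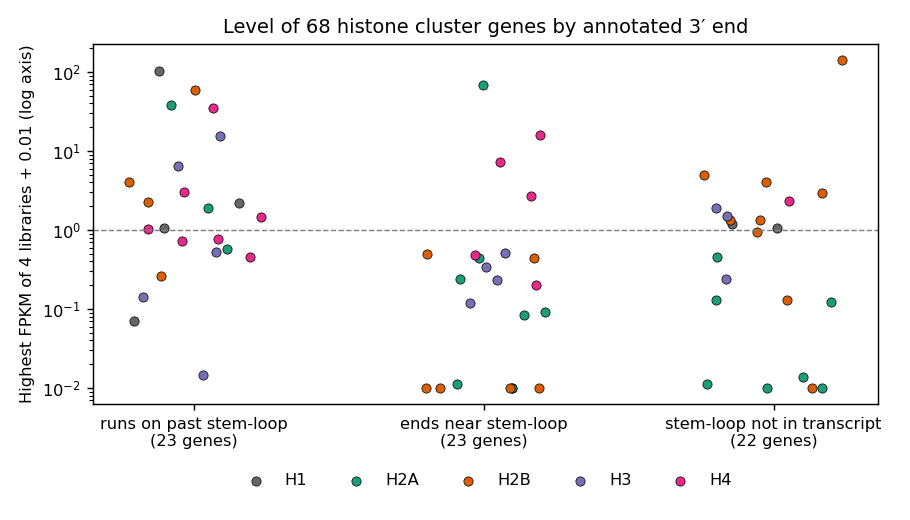
Highest FPKM in any of the 4 libraries, plus 0.01, on a log axis, for the 68 histone cluster genes, grouped by where the annotated transcript ends relative to the stem-loop; each point is 1 gene, coloured by histone class, and the dashed line marks the limit of 1 FPKM. Of the genes above the line, 14 are in the group that runs on past the stem-loop, 4 in the group that ends near it and 11 in the group with no stem-loop in the transcript. The FPKM is that of the mm9 loci, some of which are shorter than these annotated transcripts.

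The classes were unequally represented. Members numbered 5 of 6 H1 genes, 3 of 18 H2A genes, 9 of 19 H2B genes, 4 of 12 H3 genes and 8 of 13 H4 genes. They lie on chromosome 13 (19 members, the large Hist1 cluster), chromosome 3 (7 members, Hist2) and chromosome 11 (3 members, Hist3). The other 39 genes stayed under 1 FPKM in every library; 5 of them were listed at 0 in all 4, and 27 of the 68 in at least 1. Those 39 genes together summed to 6.83 FPKM (shRNA, Bic/4AP), 4.43 FPKM (shRNA, untreated), 5.90 FPKM (vector, Bic/4AP) and 4.43 FPKM (vector, untreated). The members just inside the limit were Hist2h4, Hist1h1d and Hist1h1a, with highest values of 1.02, 1.04 and 1.04 FPKM. The genes just outside it were Hist1h2ba, Hist1h4c and Hist1h4d, with 0.938, 0.758 and 0.726 FPKM.

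A few genes held nearly all the signal. The 10 members that reached 5 FPKM, 14.7% of the symbols, made up 92.1% (shRNA, Bic/4AP), 92.1% (shRNA, untreated), 91.3% (vector, Bic/4AP) and 92% (vector, untreated) of the FPKM summed over all 68 genes. That sum was 0.109%, 0.0916%, 0.101% and 0.0749% of all FPKM in the same 4 libraries. The depth was not given; the bounds that accompany each FPKM imply libraries of 0.994, 1.04 and 0.932 times the depth of vector untreated for shRNA with Bic/4AP, shRNA untreated and vector with Bic/4AP. Between 12976 and 13141 genes per library reached 1 FPKM. With 1 library per condition no difference has a replicate check, and no test of a condition was possible. Differences between conditions are given as ratios with 95% intervals from inferred fragment numbers, or as overlap of the deposited bounds. Both cover the counting of fragments within a library only, not the spread between cultures.

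Hist1h2bc, which encodes an H2B and spans chr13:23776068-23784349 (mm9), was the most abundant member on average. It had 140.6 FPKM (shRNA, Bic/4AP), 98.9 FPKM (shRNA, untreated), 140.0 FPKM (vector, Bic/4AP) and 85.6 FPKM (vector, untreated). Both Bic/4AP libraries were high and nearly level, and both untreated libraries were low. The ratio of Bic/4AP to untreated was 1.42 (1.35 to 1.496) with the hairpin and 1.64 (1.55 to 1.73) in vector. The ratio of hairpin to vector was 1.005 (0.957 to 1.054) with Bic/4AP and 1.16 (1.09 to 1.23) untreated.

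Hist1h1c, which encodes the linker histone H1.2 and spans chr13:23830676-23832236 (mm9), was the second most abundant. It had 102.7 FPKM (shRNA, Bic/4AP), 92.7 FPKM (shRNA, untreated), 79.1 FPKM (vector, Bic/4AP) and 75 FPKM (vector, untreated). Here the libraries parted by hairpin rather than by treatment: both shRNA libraries lay above both vector libraries, and their bounds did not overlap. The ratio of hairpin to vector was 1.30 (1.25 to 1.35) with Bic/4AP and 1.24 (1.19 to 1.28) untreated. The ratio of Bic/4AP to untreated was 1.11 (1.07 to 1.15) with the hairpin and 1.05 (1.01 to 1.10) in vector.

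Hist3h2ba and Hist3h2a encode an H2B and an H2A and are neighbours on chromosome 11. Hist3h2ba (chr11:58762413-58763032, mm9) had 58.7 FPKM (shRNA, Bic/4AP), 44.9 FPKM (shRNA, untreated), 50.9 FPKM (vector, Bic/4AP) and 42.6 FPKM (vector, untreated). Hist3h2a (chr11:58768187-58770176, mm9) had 38.6 FPKM (shRNA, Bic/4AP), 33.4 FPKM (shRNA, untreated), 34.0 FPKM (vector, Bic/4AP) and 26.2 FPKM (vector, untreated). For both genes the Bic/4AP library was above its untreated one without overlap of bounds, with ratios of 1.31 (1.20 to 1.43) with the hairpin and 1.20 (1.09 to 1.32) in vector for Hist3h2ba, and of 1.15 (1.10 to 1.21) and 1.30 (1.23 to 1.38) for Hist3h2a.

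Hist2h2aa1 encodes an H2A of the Hist2 cluster and stands in a pair of rows of identical value, summed here, at chr3:96049461-96050038 and chr3:96043639-96044216 (mm9). It had 63.4 FPKM (shRNA, Bic/4AP), 63.6 FPKM (shRNA, untreated), 67.7 FPKM (vector, Bic/4AP) and 44.4 FPKM (vector, untreated). The vector untreated library was low and the other 3 overlapped. The ratio of Bic/4AP to untreated was 0.998 (0.919 to 1.084) with the hairpin and 1.53 (1.39 to 1.67) in vector. Hist2h2aa2 overlaps both rows, was listed near 0, and has a transcript whose 50-base words all occur in Hist2h2aa1, so how the reads were divided among these copies is uncertain.

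Among the H3 genes, Hist2h3c1 (chr3:96050608-96052432, mm9) had 15.6 FPKM (shRNA, Bic/4AP), 11.4 FPKM (shRNA, untreated), 11.1 FPKM (vector, Bic/4AP) and 8.03 FPKM (vector, untreated). It was higher with either factor and highest with both, and the bounds were apart in all 4 comparisons. The ratios of Bic/4AP to untreated were 1.37 (1.25 to 1.49) with the hairpin and 1.38 (1.24 to 1.54) in vector, and those of hairpin to vector 1.41 (1.29 to 1.54) with Bic/4AP and 1.42 (1.29 to 1.58) untreated. Its neighbour Hist2h3c2-ps (chr3:96042031-96043050, mm9), a pseudogene by its symbol, had 6.39 FPKM (shRNA, Bic/4AP), 6.21 FPKM (shRNA, untreated), 5.81 FPKM (vector, Bic/4AP) and 5.62 FPKM (vector, untreated), and its bounds overlapped in all 4 comparisons. Of the 50-base words of Hist2h3c2-ps, 63.5% also occur in Hist2h3c1. All 1776 words of Hist2h3c1 occur in other genes of the annotation: 34.7% in other histone cluster genes, and 100% in Gm20634, whose transcripts also hold 89.4% of the words of Hist2h2aa1. Whether Gm20634 overlaps these genes at their own locus or lies elsewhere was not checked. How reads were divided among the histone genes is uncertain, so the values of Hist2h3c1 carry the same doubt.

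Of the 3 H4 genes that reached 5 FPKM, Hist1h4i (chr13:22132685-22133221, mm9) had 35.4 FPKM (shRNA, Bic/4AP), 29.6 FPKM (shRNA, untreated), 31.5 FPKM (vector, Bic/4AP) and 21.5 FPKM (vector, untreated). Hist1h4h (chr13:23622913-23623390, mm9) had 14.2 FPKM (shRNA, Bic/4AP), 12.2 FPKM (shRNA, untreated), 16 FPKM (vector, Bic/4AP) and 11.6 FPKM (vector, untreated). Hist1h4m (chr13:21903615-21904019, mm9) had 7.21 FPKM (shRNA, Bic/4AP), 2.90 FPKM (shRNA, untreated), 4.88 FPKM (vector, Bic/4AP) and 1.83 FPKM (vector, untreated). All 3 were above untreated with Bic/4AP in both backgrounds, though the bounds of Hist1h4h overlapped with the hairpin. Hist1h4m had the widest gap, with ratios of Bic/4AP to untreated of 2.48 (1.58 to 4.01) with the hairpin and 2.67 (1.47 to 5.10) in vector. It rests on few fragments, about 67.2, 28.1, 43.0 and 15.8 in the 4 libraries in the order above, and shares 89.8% of its 50-base words with Hist1h4n, whose locus overlaps it.

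**Figure D2:**
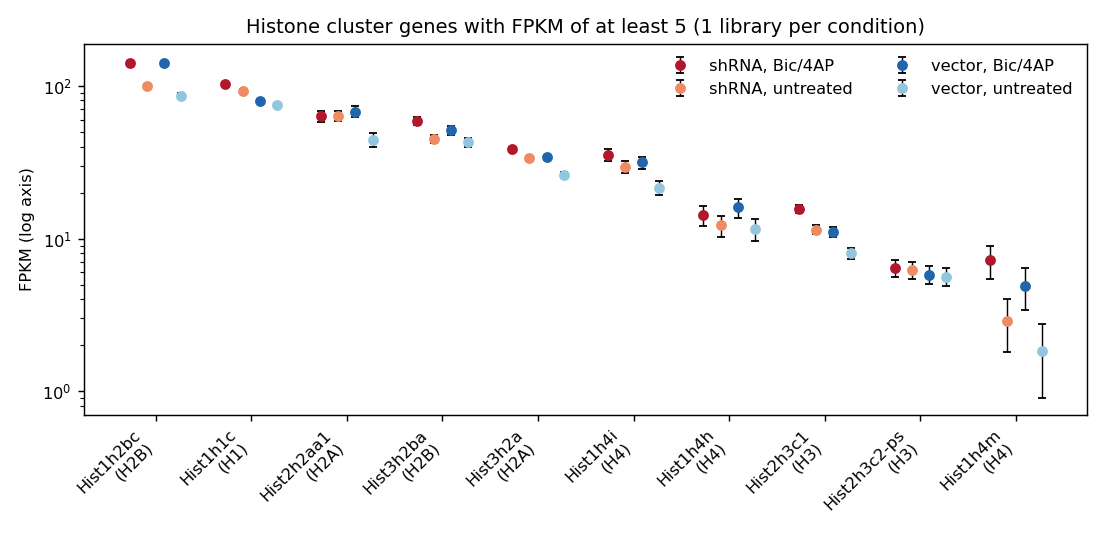
FPKM on a log axis for the 10 histone cluster genes that reached 5 FPKM, ordered by mean level, with 1 point per library and bars for the deposited lower and upper bounds, which cover counting only. Vector untreated is the lowest point for each of the 10 genes; Hist1h2bc parts by Bic/4AP, and Hist1h1c by hairpin.

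The vector untreated library was the lowest of the 4 for all 10 of these genes and for 21 of the 29 members; among the 13458 genes it was the lowest for 26.9%. It was the highest for 0 members, against 28% of all genes. The shRNA Bic/4AP library was the highest for 15 members and the vector Bic/4AP library for 12, against 19.5% and 16% of all genes. The filter bears on these counts. Of the members, 7 reached 1 FPKM only with Bic/4AP, so for them an untreated library could not be the highest.

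Bic/4AP was compared with untreated cultures first with the hairpin. As differences of log2(FPKM + 1), 1 of 29 members, Hist1h4m, was at least 2-fold higher, where 2.06% of all genes were, and 0 members were 2-fold lower, where 0.156% were. The bounds were apart and higher for 11 members, against 16.9% of all genes, and apart and lower for 0 members, against 37.3%. The difference was above 0 for 22 members, against 34.8% of all genes, and the median was 0.20 over the members and −0.08 over all genes. The 11 members were Hist1h1c, Hist1h2ac and Hist3h2a, 5 H2B genes (Hist1h2bc, Hist1h2bq, Hist1h2br, Hist2h2bb and Hist3h2ba), Hist2h3c1, Hist1h4i and Hist1h4m.

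In vector, 2 of 29 members, Hist1h4m and Hist1h3i, were at least 2-fold higher with Bic/4AP, where 2.18% of all genes were, and 0 were 2-fold lower, where 0.267% were. The bounds were apart and higher for 13 members, against 21.5% of all genes, and apart and lower for 0, against 36.4%. The difference was above 0 for 28 members, against 40.6% of all genes; the exception was Hist2h4, an H4 gene with 2 to 7 implied fragments per library. The median was 0.39 over the members and −0.07 over all genes. By class, the bounds were apart and higher for 0 of 5 H1, 2 of 3 H2A, 6 of 9 H2B, 2 of 4 H3 and 3 of 8 H4 members. The filter bears on these counts: 7 members (Hist1h1a, Hist1h1b, Hist1h1d, Hist1h2bq, Hist1h2br, Hist1h3i and Hist2h4) reached 1 FPKM only with Bic/4AP, and 0 only untreated, so a member that passed through 1 side of a comparison had to be higher on that side. Among the 20 members with at least 1 FPKM in both shRNA libraries, 1 was 2-fold higher (1.84% of all genes so chosen), 9 had bounds apart and higher (16.7%) and 16 a difference above 0 (34.4%). Among the 21 with at least 1 FPKM in both vector libraries, these counts were 1 (2.07%), 10 (21.6%) and 21 (40.2%). Members of 1 class share sequence and are not independent of each other, and the 2-fold counts turned on low genes and on the pseudocount: with 0.1 in place of 1, 7 members were 2-fold higher in vector and 3 with the hairpin.

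Below 5 FPKM, the H2B genes Hist1h2bq and Hist1h2br had identical values, 1.31 FPKM each (shRNA, Bic/4AP), 0.499 FPKM (shRNA, untreated), 1.32 FPKM (vector, Bic/4AP) and 0.389 FPKM (vector, untreated). Their annotated transcripts share most of their words (97.3% of those of Hist1h2bq occur in Hist1h2br), so they count as 1 measurement, and they passed the filter only through the Bic/4AP libraries. Both Bic/4AP libraries were above both untreated ones, with ratios of 2.63 (1.86 to 3.77) with the hairpin and 3.40 (2.31 to 5.11) in vector. The pseudocount of 1 brought these to log2 differences of 0.63 and 0.74.

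Hist2h2bb, another H2B gene, had 4.97 FPKM (shRNA, Bic/4AP), 2.44 FPKM (shRNA, untreated), 3.04 FPKM (vector, Bic/4AP) and 2.54 FPKM (vector, untreated). Its shRNA Bic/4AP library was high, with bounds apart from those of shRNA untreated and overlapping those of vector Bic/4AP. The ratio of Bic/4AP to untreated was 2.04 (1.34 to 3.16) with the hairpin and 1.20 (0.74 to 1.94) in vector. Hist1h2bg, also H2B, had the opposite order of ratios, 1.26 (0.87 to 1.84) with the hairpin and 2.20 (1.46 to 3.38) in vector, from 3.39 FPKM (shRNA, Bic/4AP), 2.69 FPKM (shRNA, untreated), 4.06 FPKM (vector, Bic/4AP) and 1.84 FPKM (vector, untreated). The intervals of each gene's pair of ratios overlap.

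Hist1h3i, an H3 gene, was detected chiefly in 1 library. It had 0.151 FPKM (shRNA, Bic/4AP), 0.178 FPKM (shRNA, untreated), 1.5 FPKM (vector, Bic/4AP) and was listed at 0 (vector, untreated). The vector Bic/4AP value corresponds to about 18.6 fragments. It was 6.64 times a floor of 3 fragments set for vector untreated, a ratio that leaves out the counting error of the 18.6 fragments. Hist1h3i passed the filter through the vector Bic/4AP library alone. Of all its 50-base words, 87.6% also occur in other genes and 79.3% in Hist1h3h, so this value depends on how shared reads were assigned. Over all members, 26 of 29 share some 50-base words with another gene, at the same locus or elsewhere, and 11 share over 50% of them. Hist1h1a, Hist1h1b and Hist2h2be share under 1%. Hist1h1a, a linker histone gene of this last kind, had 1.01 FPKM (shRNA, Bic/4AP), 0.482 FPKM (shRNA, untreated), 1.04 FPKM (vector, Bic/4AP) and 0.387 FPKM (vector, untreated), from 26, 13, 25 and 10 fragments.

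**Figure D3:**
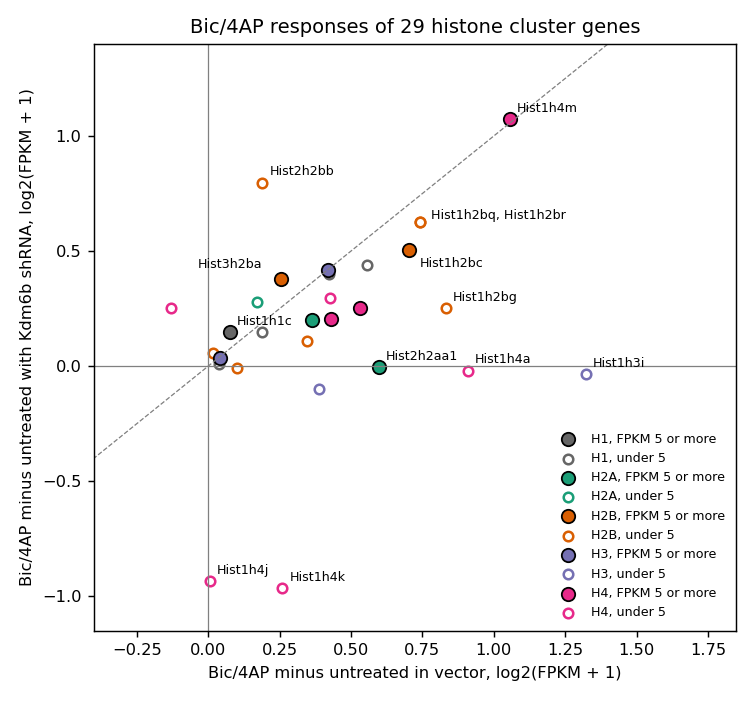
Difference between Bic/4AP and untreated in log2(FPKM + 1) with Kdm6b shRNA (vertical axis) and in vector (horizontal axis) for the 29 members, 1 point per gene, coloured by class, filled where FPKM reached 5; the dashed line marks equal differences. Of the 29 genes, 21 lie above 0 on both axes; Hist2h2aa1 lies at 0.60 in vector and at 0 with the hairpin, and Hist1h4j and Hist1h4k lie near −1 with the hairpin.

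The differences were above 0 in both backgrounds for 21 of 29 members, against 28.3% of all genes. The filter bears on this count too. Hist1h1a, Hist1h1b, Hist1h1d, Hist1h2bq and Hist1h2br are among the 21 and reached 1 FPKM only with Bic/4AP. For them a rise in at least 1 background was set by the filter, and Hist1h2bq and Hist1h2br are 1 measurement. The 2 responses share no library. For the remaining 8 members the sign was opposite, but only Hist2h2aa1 among them had more than 5 FPKM.

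The Kdm6b hairpin was compared with vector first with Bic/4AP. Of 29 members, 0 were at least 2-fold higher, where 0.186% of all genes were, and 1 was 2-fold lower, Hist1h3i, where 0.528% were. The bounds were apart and higher for 5 members (Hist1h1c, Hist1h1d, Hist2h3c1, Hist3h2a and Hist3h2ba), a smaller share than the 28.2% of all genes, and apart and lower for 1, Hist1h3i, against 20.9%. The difference was above 0 for 16 members, against 56.4% of all genes, and the medians were 0.02 over the members and 0.03 over all genes. The median of the members turned to below 0 under a median-ratio scaling of the libraries. The filter bears on these counts as well. Hist1h1d and Hist2h4 passed it only through shRNA Bic/4AP and Hist1h3i only through vector Bic/4AP, so each had to be higher on that side. Among the 24 members with at least 1 FPKM in both Bic/4AP libraries, 4 had bounds apart and higher (28.3% of all genes so chosen). Bounds were apart and lower for 0 (21.2%), and the difference was above 0 for 14 (56.1%).

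In untreated cultures 0 members were 2-fold higher or lower with the hairpin, where 0.409% and 0.661% of all genes were. The bounds were apart and higher for 8 members, against 32.8% of all genes, and apart and lower for 0, against 22%. The 8 were Hist1h1c, Hist1h1d, Hist2h2aa1, Hist3h2a, Hist1h2bc, Hist2h2be, Hist2h3c1 and Hist1h4i. The difference was above 0 for 24 members, against 58.8% of all genes, and the medians were 0.21 over the members and 0.05 over all genes. Among the 21 members with at least 1 FPKM in both untreated libraries, 7 had bounds apart and higher (32.9% of all genes so chosen). Bounds were apart and lower for 0 of them (22.3%), and the difference was above 0 for 16 (58.7%). The largest difference was that of the H4 gene Hist1h4k, 0.85, from about 12.7 fragments (shRNA, untreated) and 4.38 fragments (vector, untreated). The lowest was that of Hist1h1e, a linker histone gene whose locus overlaps that of Hist1h2be, at −0.23, from 1.63 FPKM (shRNA, untreated) and 2.08 FPKM (vector, untreated). Each pair of comparisons that uses the vector untreated library shares its value, which was the lowest for most members.

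Summed by class, H1 was ordered by hairpin, mainly through Hist1h1c, and H2B by Bic/4AP. The 5 H1 members summed to 107.5 FPKM (shRNA, Bic/4AP), 96.2 FPKM (shRNA, untreated), 84.0 FPKM (vector, Bic/4AP) and 78.5 FPKM (vector, untreated), and nearly all of that was Hist1h1c. The 9 H2B members summed to 218.9 FPKM (shRNA, Bic/4AP), 158.2 FPKM (shRNA, untreated), 208.6 FPKM (vector, Bic/4AP) and 140.3 FPKM (vector, untreated). The log2 ratio of Bic/4AP to untreated was 0.16 with the hairpin and 0.10 in vector for H1, and 0.47 and 0.57 for H2B. The log2 ratio of hairpin to vector was 0.36 with Bic/4AP and 0.29 untreated for H1, and 0.07 and 0.17 for H2B. Without Hist1h2bc the other 8 H2B members still gave 0.40 with the hairpin and 0.33 in vector for Bic/4AP. Without Hist1h1c the other 4 H1 members summed to between 3.50 and 4.98 FPKM. They gave 0.44 and 0.51 for Bic/4AP, and −0.03 with Bic/4AP and 0.04 untreated for the hairpin. Of these, Hist1h1a, Hist1h1b and Hist1h1d reached 1 FPKM only with Bic/4AP, so the filter favoured a rise of this sum. For Hist1h1e the ratios of Bic/4AP to untreated were 1.01 with the hairpin and 1.04 in vector. For the hairpin, Hist1h1d and Hist1h1e went opposite ways, though the bounds of Hist1h1e overlapped. The ratios of hairpin to vector were 1.58 with Bic/4AP and 1.84 untreated for Hist1h1d, and 0.76 and 0.78 for Hist1h1e. Hist1h1d passed the filter only through shRNA Bic/4AP, so the filter favoured its ratio with Bic/4AP. The H1 sum thus mostly follows Hist1h1c.

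The 3 H2A members summed to 103.9 FPKM (shRNA, Bic/4AP), 98.4 FPKM (shRNA, untreated), 103.5 FPKM (vector, Bic/4AP) and 72.1 FPKM (vector, untreated). The 4 H3 members summed to 23.3, 19.1, 20.3 and 14.8 FPKM in those libraries, and the 8 H4 members to 63.4, 53.1, 60.5 and 40.1 FPKM. For each of these classes vector untreated was the lowest. The log2 ratio of Bic/4AP to untreated was 0.08 (H2A), 0.29 (H3) and 0.26 (H4) with the hairpin, and 0.52 (H2A), 0.45 (H3) and 0.59 (H4) in vector. Without the most abundant member of each (Hist2h2aa1, Hist2h3c1 and Hist1h4i) these became 0.22 (H2A), −0.00 (H3) and 0.25 (H4) with the hairpin, and 0.37 (H2A), 0.43 (H3) and 0.64 (H4) in vector, so the H3 sum with the hairpin rests on Hist2h3c1. In vector the remaining 3 H3 members summed to 9.18 FPKM with Bic/4AP and 6.81 FPKM untreated. Most of that gap came from Hist1h3i, which was listed at 0 in vector untreated. It passed the filter only through the vector Bic/4AP library, on about 18.6 fragments. The sums of all 29 members were 517.1 FPKM (shRNA, Bic/4AP), 425 FPKM (shRNA, untreated), 476.9 FPKM (vector, Bic/4AP) and 345.8 FPKM (vector, untreated). That gives log2 ratios of 0.28 and 0.46 for Bic/4AP with the hairpin and in vector. In these bulk cultures a change in the number of cells that express a gene and a change in RNA per cell cannot be told apart.

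**Figure D4:**
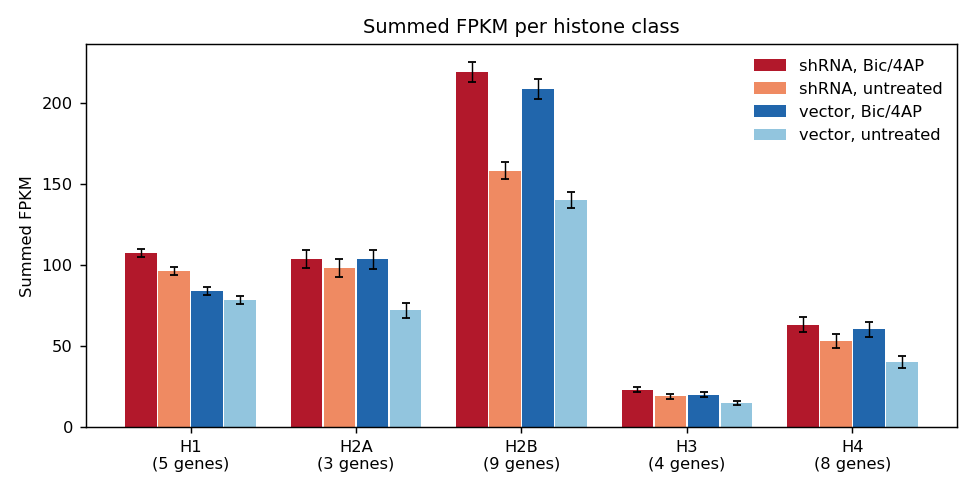
Summed FPKM of the members of each histone class in the 4 libraries (1 library per condition), as bars from 0, with lines for the combined deposited bounds, which cover counting only. H1 is ordered by hairpin, through Hist1h1c, from 107.5 FPKM with shRNA and Bic/4AP down to 78.5 FPKM in vector untreated; for H2B both Bic/4AP bars stand above both untreated bars.

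Genes that act on histone RNA or mark cycling cells were read from lists, whose choice was made with results of these data known. Of 20 measured genes of histone transcription and 3′ processing, 0 were 2-fold different with Bic/4AP in either background, and most were slightly lower: 6 with the hairpin and 4 in vector were above 0, bounds were apart and lower for 11 and 9, and the medians were −0.11 and −0.08. Bounds were apart and higher for 1 gene, Slbp. This gene, for the stem-loop binding protein, had 27.6 FPKM (shRNA, Bic/4AP), 22.1 FPKM (shRNA, untreated), 26.7 FPKM (vector, Bic/4AP) and 18.4 FPKM (vector, untreated), and so followed Bic/4AP. Its differences, 0.31 with the hairpin and 0.51 in vector, were the highest of the list; the lowest were those of Cstf2t, a cleavage stimulation factor subunit, at −0.46 and −0.35. Lsm11, which encodes a protein of the U7 ribonucleoprotein, had 10.9 FPKM (shRNA, Bic/4AP), 12.3 FPKM (shRNA, untreated), 25 FPKM (vector, Bic/4AP) and 29.4 FPKM (vector, untreated). It was the 1 gene of this list past 2-fold, lower with the hairpin by log2 differences of −1.13 with Bic/4AP and −1.19 untreated. Lsm10, the other Sm-like protein particular to that ribonucleoprotein, lay between 12 and 14.4 FPKM in all 4 libraries. Of 12 genes of histone mRNA decay, 0 were 2-fold different in any comparison; Eri1, a 3′ exonuclease that acts on the stem-loop, had the largest difference with Bic/4AP, 0.35 with the hairpin and 0.32 in vector.

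The replication-independent histone genes, which make polyadenylated mRNA, had a higher sum than the 29 members in every library. Selection on polyA does not sample all mRNA of the cluster genes, so the sums cannot rank total histone mRNA. The 11 replication-independent genes summed to 1090 FPKM (shRNA, Bic/4AP), 926.3 FPKM (shRNA, untreated), 1137 FPKM (vector, Bic/4AP) and 944.4 FPKM (vector, untreated). Their median log2 differences with Bic/4AP were 0.02 with the hairpin and 0.08 in vector. Single genes went both ways. The extremes with Bic/4AP were 0.57 (H2afz) and −0.52 (H2afy2) with the hairpin, and 0.80 (Cenpa) and −0.74 (H1fx) in vector. For the hairpin they were 0.54 (Cenpa) and −0.59 (H3f3b) with Bic/4AP, and 1.03 (Cenpa) and −0.57 (H1fx) untreated. Only Cenpa in the last comparison was past 2-fold. H3f3b, one of the genes for the H3.3 variant, had 188.9 FPKM (shRNA, Bic/4AP), 134.9 FPKM (shRNA, untreated), 284.2 FPKM (vector, Bic/4AP) and 183.5 FPKM (vector, untreated): higher with Bic/4AP and lower with the hairpin in both states. Among 24 measured histone chaperones, 0 were 2-fold different; Ubn2, a subunit of the HIRA complex, had the largest difference with Bic/4AP, 0.82 with the hairpin and 0.91 in vector.

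Other measures moved with the same libraries. The 20 listed mitosis genes summed to 67.6 FPKM (shRNA, Bic/4AP), 62.9 FPKM (shRNA, untreated), 39.3 FPKM (vector, Bic/4AP) and 29.1 FPKM (vector, untreated), and 16 of the 16 measured were above 0 for the hairpin in both states. Of 24 measured S-phase genes, Pcna, the sliding clamp of DNA polymerase, stood out for Bic/4AP with log2 differences of 1.60 (hairpin) and 1.76 (vector), while the list medians were 0.02 and 0.15. For the hairpin the S-phase list had medians of 0.13 with Bic/4AP and 0.22 untreated, and Rrm2, a subunit of ribonucleotide reductase, was the lowest at −1.13 and −0.82. Neuron markers, 8 of 9 measured, summed to 1433 FPKM (shRNA, Bic/4AP), 1583 FPKM (shRNA, untreated), 1945 FPKM (vector, Bic/4AP) and 2342 FPKM (vector, untreated). Astrocyte markers summed to 3137, 2790, 3109 and 2900 FPKM, neural progenitor markers to 3127, 2692, 3166 and 2389 FPKM, and microglia markers to 22.8, 22.2, 48.8 and 51.3 FPKM, in the same order of libraries. The microglia markers were not alike for the hairpin. Their log2 differences ran from −1.46 (Tyrobp) to 0.24 (P2ry12) untreated, and from −1.41 to 0.10 for the same genes with Bic/4AP. Of 8 measured, 1 was above 0 untreated and 2 with Bic/4AP. Mitosis and progenitor sums, like the histone sum, were thus lowest in vector untreated, while neuron markers were highest there. The part of these shifts in the histone levels was not tested.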

How the data were processed

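Each of the 4 libraries of polyA-enriched RNA had 1 gene table. Its FPKM values, with lower and upper bounds and a status, were made by the authors and deposited as such; per the file headers the layout is that of a Cufflinks tracking table. Per the submitters' processing notes, the tools include Cufflinks 2.0.2, TopHat2 2.0.8b and CASAVA 1.8, and the genome build is mm9, with no role stated for any; the handling of strand and of reads that match several places is not given in the sources used here. Replicates were not present, so p-values are not given.

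From the 22878 rows per table, 42 symbols with a failed row and small RNA genes named by symbol were left out, which left 21723 genes; FPKM was summed per symbol. Differences are of log2(FPKM + 1), Bic/4AP minus untreated or shRNA minus vector, over 13458 genes with at least 1 FPKM in 1 library. Implied fragments are the square of 2 × FPKM divided by the distance to the upper bound. They came out whole, within 0.05, for 70.3% of 17176 low values over all genes and 59.3% of 118 histone values. Why the others were fractional was not tested. They did not always scale with FPKM: Hist1h2be had 160 at 1.46 FPKM (shRNA, untreated) and 111.9 at 1.66 FPKM (shRNA, Bic/4AP). Ratio intervals are 95% binomial intervals that treat these inferred fragments as counts. Stem-loops, AATAAA and shared 50-base words were searched in GENCODE mouse release 21 transcripts by symbol. Named genes are the members that reached 5 FPKM, the 3 highest and 3 lowest differences per comparison, and some of the extremes of the lists, plus a few chosen after their values were seen: Hist1h1a, Hist1h2bg, Lsm10, H3f3b, and the members listed by bounds. Alternatives were other pseudocounts, scalings, FPKM limits, the highest row per symbol and bounds; leaving out members with shared words or Hist1h2bc, and a limit of 1 FPKM in both libraries compared, were added after seeing the data. The calculations were tested on simulated data. Members and lists were chosen with earlier results of these data known. Python 3.11.15, numpy 2.4.6, pandas 2.3.3, scipy 1.17.1 and matplotlib 3.10.9 were used.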

Additional observations from a re-analysis of the deposited data

Results flagged for a closer look

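For 8 of the 29 members the difference between Bic/4AP and untreated had opposite signs with the hairpin and in vector. The difference of the 2 responses (hairpin minus vector, in log2 of FPKM + 1) was −1.36 for Hist1h3i, −1.22 for Hist1h4k, −0.94 for Hist1h4j, −0.93 for Hist1h4a, −0.60 for Hist2h2aa1, −0.49 for Hist2h3b, −0.11 for Hist2h2be and 0.38 for Hist2h4. None of these differences was tested, since each rests on 1 library per condition. Hist2h2aa1 and Hist2h2be had 790 and 252 or more implied fragments in every library; the other 6 had at most 18.6 in any. With the hairpin the difference of Hist2h2aa1 itself was −0.00, that of Hist2h2be −0.01 and that of Hist1h4a −0.02, and all 3 signs turned under a median-ratio and an upper-quartile scaling; the small difference of Hist1h4j in vector, 0.01, turned under a common-sum scaling.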

How the results depend on the processing

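Over all alternatives, 157 values that answer a comparison stayed within the limits set for a move (0.2 on the log2 scale, 1.5 times for a count) and 19 did not; no difference of 2-fold or more changed sign, but the medians and sums close to 0 named below did. With a pseudocount of 0.1 the counts of members 2-fold higher were 3 (Bic/4AP with shRNA), 7 (Bic/4AP in vector), 1 (shRNA with Bic/4AP) and 2 (shRNA untreated), and those 2-fold lower 2 (Bic/4AP with shRNA) and 2 (shRNA with Bic/4AP). With a pseudocount of 5, or without members that share over 50% of their 50-base words, 0 were 2-fold higher with Bic/4AP in either background and 0 lower with the hairpin; under the pseudocount of 5 the median for Bic/4AP in vector was 0.16. With all 68 genes the medians were 0.089 (Bic/4AP in vector) and 0 (shRNA untreated). With a limit of 5 FPKM, or of 1 FPKM in both libraries compared, 1 member was 2-fold higher (Bic/4AP in vector) and 0 lower (shRNA with Bic/4AP). Signs close to 0 turned under other scalings: the H2A sum for the hairpin with Bic/4AP (0.00, lowest −0.03), and the members' median there (0.02, lowest −0.00, and 0 over all 68 genes). Sums were not recomputed with other pseudocounts or by bounds. Genes under about 20 fragments are limited by depth. No paired analysis was possible because each condition has 1 library.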
